A study of Arabidopsis thaliana with 24 samples.

Results

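CESA1 to CESA9 encode catalytic subunits of cellulose synthase in Arabidopsis thaliana, and their transcripts were followed here in seedlings treated with coronatine or related compounds. The 9 genes were taken by name from a table of 27416 genes, with 6 assigned to the primary wall (CESA1, AT4G32410; CESA3, AT5G05170; CESA6, AT5G64740; CESA2, AT4G39350; CESA5, AT5G09870; and CESA9, AT2G21770) and 3 to the secondary wall (CESA4, AT5G44030; CESA7, AT5G17420; and CESA8, AT4G18780). No measured value was used to pick them, but earlier results of these data were known when they were chosen. All 9 passed the count filter that left 20109 genes for testing.

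Cellulose is made at the plasma membrane by a rosette-shaped complex that joins different CESA isoforms. In primary walls of growing cells the complex holds CESA1, CESA3 and a CESA6-type subunit, a place that CESA6 shares with CESA2, CESA5 and CESA9. In secondary walls, which thicken xylem vessels and fibres after growth ends, CESA4, CESA7 and CESA8 take these places. Coronatine, a bacterial toxin, mimics the hormone jasmonoyl-isoleucine and brings the F-box protein COI1 together with JAZ repressors, which are then degraded. Jasmonate slows the growth of seedlings, and cev1 mutants, which carry a defect in CESA3, have constitutive jasmonate and ethylene signalling.

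The seedlings were 6 days old and were either wild type Col-0 or jaz9-1, a T-DNA insertion line of JAZ9. Treatment lasted 8 h, with mock solution, 2 (coronatine), 2e (a stereoisomer of 2) or a derivative that the labels call only 12, at the 1 µM that the series text gives for the compounds. Each of the 8 groups had 3 libraries, and each library was made from 5 to 8 whole seedlings grown in liquid medium. In whole seedlings, fewer cells of a type and less RNA per cell cannot be told apart. Levels below are in CPM, the count of a gene relative to the total count of its library after TMM scaling, and a gene is called higher or lower in a comparison when its edgeR FDR is below 0.1.

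The libraries held 6226126 to 29404141 counts. JAZ9 stood at 4.79, 4.91 and 3.01 CPM in the Col-0 mock libraries and at 3.62, 2.26 and 2.21 CPM in the jaz9-1 ones, and with 2 it reached 169, 185 and 185 CPM in Col-0 and 37.4, 41.6 and 52.1 CPM in jaz9-1. Reads of JAZ9 thus remained in the line, at a log2 difference of -2.05 (SE 0.17, FDR = 1.92e-09) from Col-0 with 2. Where the counted reads lie relative to the insertion was not examined. Among 7 seed markers, genes of storage, oil body and late embryogenesis proteins, the summed level was 61.8 CPM in Col-0 mock replicate 2 and 18.6 CPM in Col-0 12 replicate 2, against at most 2.47 CPM in any other library. The CESA results in Col-0 that rest on these libraries are therefore given with and without them, while the other gene lists were not refitted without them. TMM factors were 0.845 to 0.922 in the 6 libraries with 2 and 1.00 to 1.08 in the other 18, so the scaling raises the libraries with 2 relative to their total counts.

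In mock-treated Col-0 the transcripts fell into separate tiers. CESA3 was the highest at 201 ± 5.45 CPM (SD, n = 3), followed by CESA1 at 166 ± 6.03 and CESA6 at 143 ± 9.36, the genes of the main primary wall trio. CESA2 and CESA5 followed at 54.0 ± 4.39 and 42.5 ± 4.81 CPM. The secondary wall genes were far lower, with CESA4 at 7.64 ± 2.04, CESA8 at 7.11 ± 0.894 and CESA7 at 4.85 ± 0.626 CPM. Per kilobase of transcript the levels were 52.6 CPM for CESA3, 39.4 for CESA1, 34.3 for CESA6, 12.7 for CESA2 and 10.3 for CESA5. They were 2.13 for CESA8, 2.10 for CESA4 and 1.43 for CESA7. On this scale neighbours in the order did not overlap between libraries, except CESA8 with CESA4 and CESA4 with CESA7. The labels name both TruSeq and Lasy-Seq, and the study's methods name Lasy-Seq, which reads the 3′ ends of transcripts. With reads from 3′ ends the level without division by length is the nearer measure. The order is the same on both scales apart from CESA4 and CESA8, which overlap.

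CESA9, known for its part in the seed coat, was near the limit of detection. It had 0 reads in 7 of the 24 libraries, where 3 reads would have been 0.132 to 0.570 CPM, and at most 23 reads in any library. The seed marker libraries did not stand out for it, with 0 reads in Col-0 mock replicate 2 and 8 in Col-0 12 replicate 2. No comparison called CESA9, and its fold changes are not given. The CESA genes share sequence, so that some reads may be split among them, and CESA1, CESA3, CESA4, CESA7 and CESA8 overlap another annotated gene. Reads over several genes were counted for each. Spread among replicates was larger for the less abundant secondary wall genes than for CESA1 and CESA3. The coefficient of variation within a group had a median of 3.61% over the 8 groups for CESA1 and 5.54% for CESA3, against 15.4% for CESA4, 17.3% for CESA8 and 18.5% for CESA7.

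**Figure D1:**
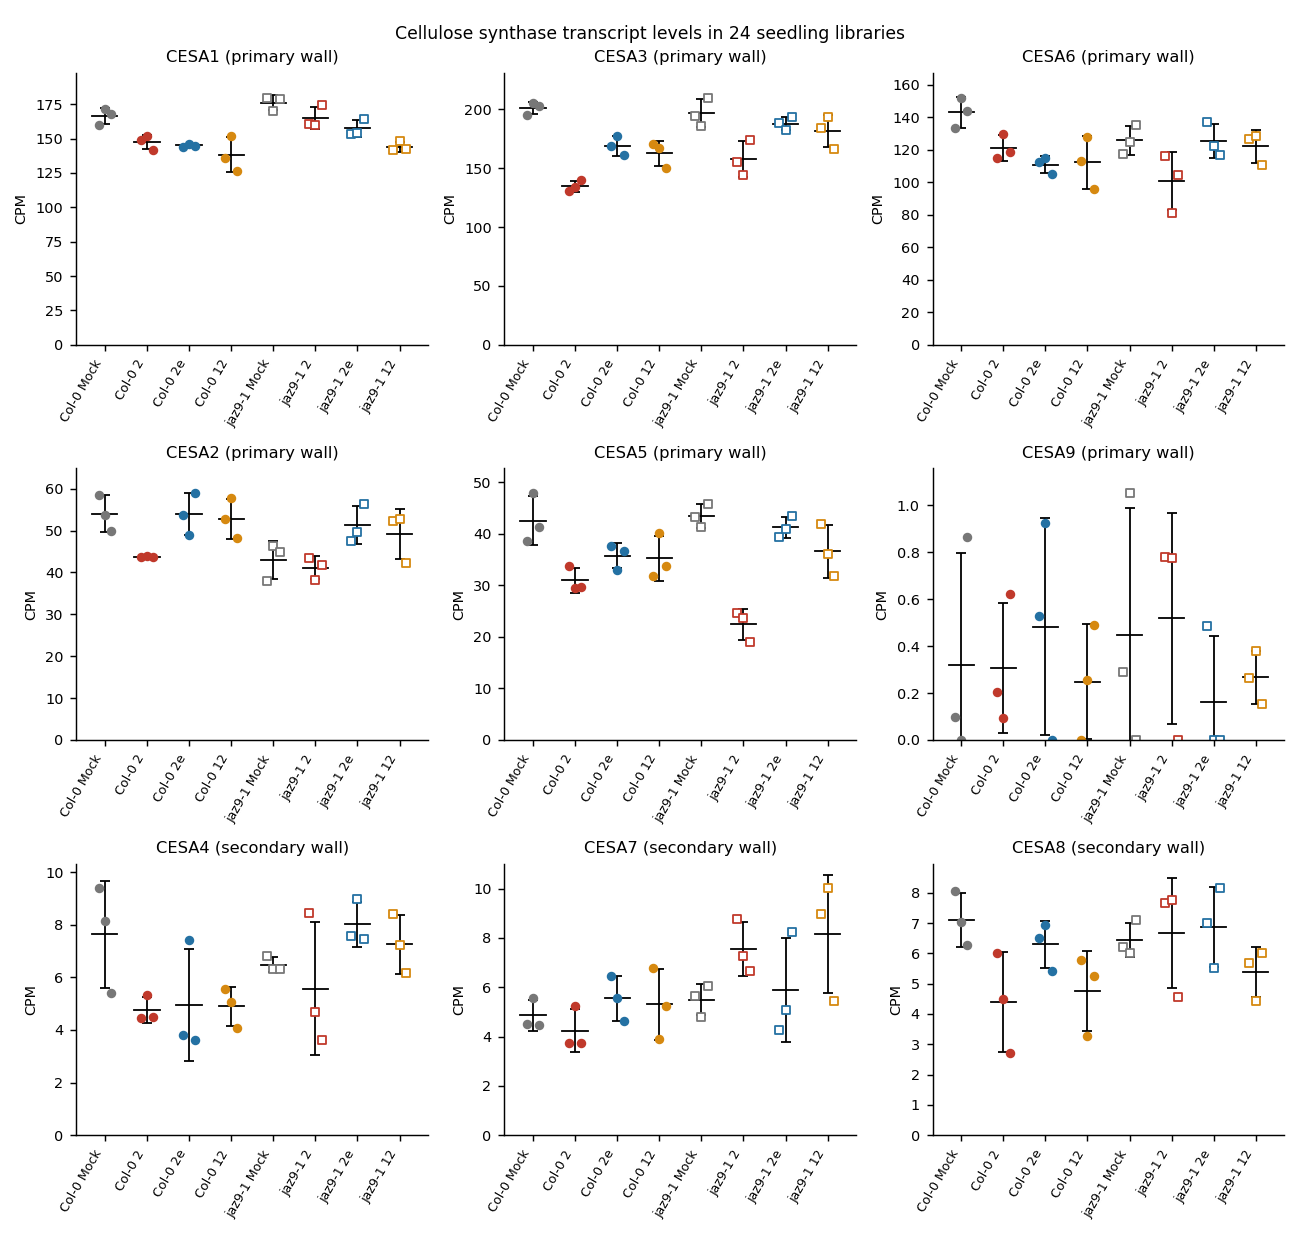
Transcript levels of the 9 cellulose synthase genes in CPM (y axis, each panel from 0) for the 8 groups (x axis). Points are libraries (circles Col-0, squares jaz9-1), horizontal lines the mean and bars the SD of 3 libraries. CESA5 in jaz9-1 with 2 lies at 19.0 to 24.6 CPM, below every other library, and CESA3 in Col-0 with 2 at 130.3 to 139.6 CPM.

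The comparison of 2 with mock asks which transcripts respond to coronatine. In Col-0, 3 of the 9 genes were lower with 2 (CESA3, CESA5 and CESA2) and none was higher, where 11.2% of all tested genes were lower and 11.9% higher. CESA3 was at 195, 206 and 203 CPM in the mock libraries and at 130.3, 134 and 139.6 CPM with 2. The groups were far apart, and CESA3 fell by 0.58 on the log2 scale (SE 0.086, FDR = 2.66e-06). CESA5, known for its part in the cellulose of seed coat mucilage, was at 38.5, 47.9 and 41.2 CPM with mock and 33.7, 29.5 and 29.6 CPM with 2. It fell by 0.45 on the log2 scale (SE 0.13, FDR = 0.00932). CESA2 was at 58.5, 53.8 and 49.8 CPM with mock and, with little spread, at 43.7, 43.8 and 43.6 CPM with 2. It fell by 0.30 on the log2 scale (SE 0.12, FDR = 0.0647), and this call was lost when Col-0 mock replicate 1 or 2 or any of the 3 libraries with 2 was left out (FDR 0.132 to 0.257).

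CESA1 and CESA6, the other genes of the main primary wall trio, had smaller estimates than CESA3. The difference between the genes was not tested. CESA1 was at 159.6, 171 and 168 CPM with mock and 149, 152 and 142 CPM with 2, a log2 difference of -0.17 (SE 0.081, FDR = 0.149). CESA6 was at 133, 152 and 144 CPM with mock and 115, 129.8 and 119 CPM with 2, a difference of -0.24 (SE 0.11, FDR = 0.149). All 3 libraries with 2 lay below all mock libraries for both genes, without a call.

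For the secondary wall genes the estimates were less precise. CESA4 was at 9.39, 8.14 and 5.40 CPM with mock and 4.45, 5.34 and 4.48 CPM with 2. The log2 difference was -0.68, 95% interval -1.29 to -0.068, FDR = 0.122. CESA8 was at 8.05, 7.03 and 6.27 CPM with mock and 6.00, 4.49 and 2.71 CPM with 2. Its difference was -0.69, 95% interval -1.28 to -0.094, FDR = 0.105. CESA8 was called lower with DESeq2 (adjusted p = 0.0875) and without Col-0 2 replicate 1 (FDR = 0.0336), and CESA4 without Col-0 mock replicate 3 (FDR = 0.0630). CESA7 overlapped between the groups, at 4.50, 5.58 and 4.48 CPM with mock and 3.75, 5.24 and 3.73 CPM with 2 (-0.21, 95% interval -0.81 to 0.40, FDR = 0.732).

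In all, 7 of the 9 genes had every library with 2 below every mock library, against 17.6% of all tested genes. In neither genotype did 1 of the 9 reach a 2.5-fold decrease with 2 at this FDR, which 2.79% of all tested genes did in Col-0 and 3.18% in jaz9-1. The median log2 difference of the 9 was -0.30, against -0.016 over all tested genes. Calls depend on the scaling here: with library totals in place of TMM, which shifts the median of all genes to -0.20, 7 of the 9 were called lower (all but CESA7 and CESA9). Without the 2 libraries that hold seed transcripts, CESA3 and CESA5 stayed lower and CESA2 was not called (log2 difference -0.29, FDR = 0.148).

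**Figure D2:**
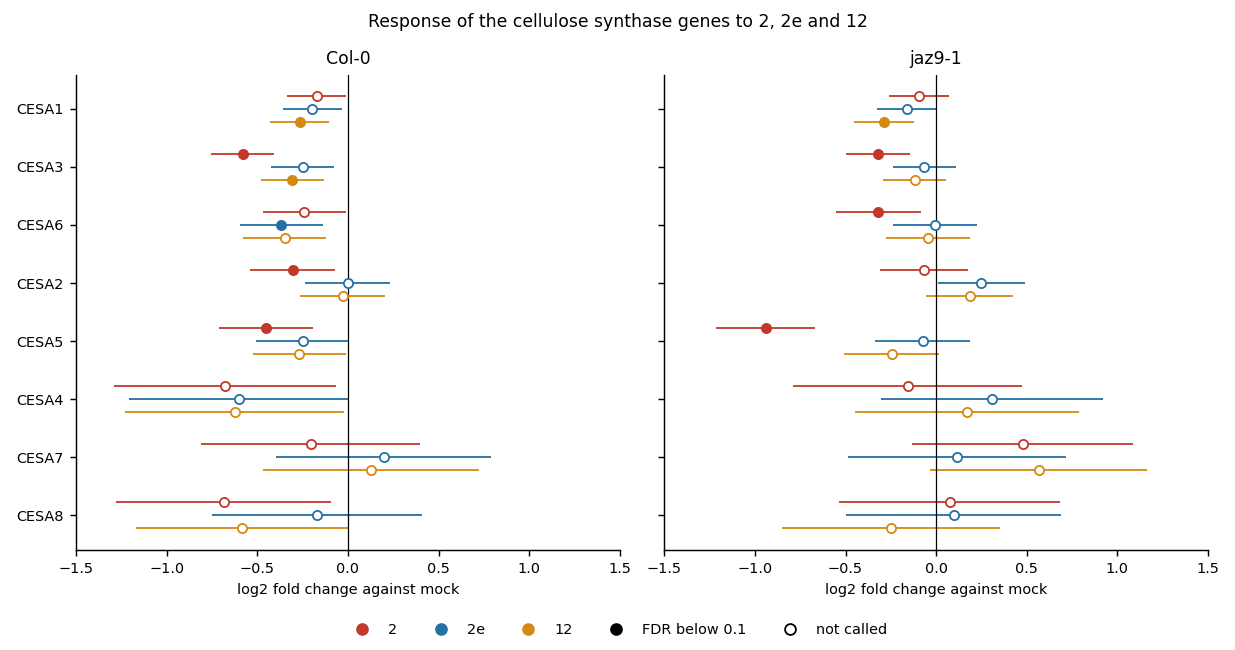
Log2 fold change against mock (x axis) for 8 of the genes (y axis) in Col-0 and jaz9-1, with bars for the 95% interval of edgeR's quasi-likelihood fit. Filled points have an FDR below 0.1. CESA9 is left out because of its low counts. All called values lie below 0, from -0.27 for CESA1 with 12 in Col-0 to -0.94 for CESA5 with 2 in jaz9-1.

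In jaz9-1, 3 genes were lower with 2 (CESA5, CESA3 and CESA6) and none was higher, where 14.2% of all tested genes were lower and 14.9% higher. CESA5 had the largest called change of the 9 genes in any comparison with mock. It was at 43.1, 41.4 and 45.8 CPM with mock and 24.6, 23.6 and 19.0 CPM with 2, and it fell by 0.94 on the log2 scale (SE 0.13, FDR = 1.65e-06). The 3 libraries with 2 were the lowest of all 24 for CESA5. CESA3 was at 194, 186 and 209.7 CPM with mock and 155, 144 and 174 CPM with 2. It fell by 0.32 on the log2 scale (SE 0.087, FDR = 0.00583). CESA6 was at 117, 125 and 135 CPM with mock and 116, 81.2 and 104 CPM with 2, with every library below the mock ones. The same held for CESA3 and CESA5, and for 15.2% of all tested genes. CESA6 fell by 0.32 on the log2 scale (SE 0.11, FDR = 0.0414), and the FDR was 0.157 without jaz9-1 mock replicate 3 and 0.295 without jaz9-1 2 replicate 2, the library with the lowest value.

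CESA1 and CESA2 overlapped between 2 and mock in jaz9-1, with log2 differences of -0.10 (SE 0.081, FDR = 0.450) and -0.067 (SE 0.12, FDR = 0.755). So did CESA4, at 6.80, 6.32 and 6.33 CPM with mock and 8.44, 4.66 and 3.61 CPM with 2, and CESA8, at 6.22, 6.01 and 7.10 and 7.66, 7.77 and 4.56 CPM. CESA7 had all 3 libraries with 2 above the mock ones, at 8.77, 7.26 and 6.66 against 5.65, 4.81 and 6.04 CPM, a pattern seen in 15.4% of all tested genes, and was not called (0.48, 95% interval -0.13 to 1.09, FDR = 0.279). With library totals in place of TMM, which shifts the median of all genes to -0.24, 5 genes were called lower with 2 in jaz9-1.

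Comparing the genotypes under each treatment asks whether JAZ9 affects these transcripts. With mock no member was called, where 1.34% of all tested genes were lower and 1.19% higher in jaz9-1; edgeR gave an unadjusted p below 0.05 for 1 of the 9, and DESeq2 called none. That 1 was CESA2, at 37.9, 46.2 and 44.8 CPM in jaz9-1 and 58.5, 53.8 and 49.8 CPM in Col-0 (-0.32, 95% interval -0.56 to -0.083, FDR = 0.192). With 2, CESA5 was lower in jaz9-1, at a log2 difference of -0.45 (SE 0.13, FDR = 0.0413), where 3.48% of all tested genes were lower. CESA7 was higher in jaz9-1 with 2, by a log2 difference of 0.87 (SE 0.30, FDR = 0.0865), where 4.8% of all tested genes were higher. Every jaz9-1 library with 2 was below every Col-0 library for CESA5, as for 10.3% of all tested genes, and above for CESA7, as for 9.73%. The CESA5 call was lost without Col-0 2 replicate 1 (FDR = 0.176) or jaz9-1 2 replicate 3 (FDR = 0.207). The CESA7 call was lost without Col-0 2 replicate 1 or 3 or without any of the 3 jaz9-1 libraries with 2 (FDR 0.132 to 0.257). With 2e and 12 no member was called between the genotypes, where 2.11% and 1.56% of all tested genes were lower and 1.24% and 1.86% higher; edgeR gave an unadjusted p below 0.05 for 1 of the 9 each (CESA4 with 2e, CESA7 with 12), and DESeq2 called none.

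The difference between the genotypes in the response itself was tested in the same model, and no member was called for 2, 2e or 12. For 2, 0.264% of all tested genes had a lower and 0.477% a higher response in jaz9-1; for 2e and 12 the shares were 0% to 0.00497%. The response of CESA5 to 2 was lower in jaz9-1 by a log2 difference of -0.49, 95% interval -0.86 to -0.11, FDR = 0.283. For CESA3 it was 0.26, 95% interval 0.011 to 0.51, FDR = 0.410. For the secondary wall genes the differences for 2 were 0.52 (CESA4), 0.68 (CESA7) and 0.76 (CESA8), each with an interval that includes 0. By unadjusted p below 0.05, edgeR gave 2 of the 9 genes for 2 (CESA3 and CESA5), 2 for 2e (CESA6 and CESA4) and 0 for 12; DESeq2 called none.

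Whether the stereoisomer 2e and compound 12 act on the same genes was asked by setting each against mock. In Col-0 with 2e, 1 of the 9 genes was lower and none higher, where 0.343% of all tested genes were lower and 2.41% higher. This was CESA6, at 113, 115 and 105 CPM against 133, 152 and 144 CPM with mock, which fell by 0.37 on the log2 scale (SE 0.11, FDR = 0.0978). The call stands at the threshold and was lost when any of the 6 libraries was left out (FDR 0.114 to 0.348). CESA3 was at 169, 178 and 161 CPM with 2e, below all mock libraries, with a difference of -0.25 (SE 0.085, FDR = 0.173). CESA1 was at 144, 146 and 145 CPM, with a difference of -0.20 (SE 0.080, FDR = 0.356). Together with CESA5 these 3 genes had every library with 2e below every mock library, which held for 7.18% of all tested genes. For CESA2 the estimate was near 0, with a 95% interval of -0.24 to 0.23.

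With 12 in Col-0, CESA1 and CESA3 were lower, where 0.855% of all tested genes were lower and 2.19% higher. CESA3 was at 170.3, 167 and 151 CPM and fell by 0.31 on the log2 scale (SE 0.085, FDR = 0.0473). CESA1 was at 136, 152 and 127 CPM and fell by 0.27 on the log2 scale (SE 0.080, FDR = 0.0835). CESA6 was at 113, 128 and 95.7 CPM, without a call, with a difference of -0.35 (SE 0.11, FDR = 0.123). CESA6 was called without Col-0 12 replicate 2 (FDR = 0.0510) and with DESeq2 (adjusted p = 0.0873). These 3 genes and CESA8 had every library with 12 below every mock library, against 8.96% of all tested genes. Without Col-0 mock replicate 2 and Col-0 12 replicate 2, the libraries with seed transcripts, no member was called with 2e or 12 (FDR = 0.328 for CESA6 with 2e, 0.137 for CESA1 and 0.258 for CESA3 with 12). The log2 differences in that fit, which has fewer libraries, were -0.32 for CESA6 with 2e, and -0.32 for CESA1 and -0.31 for CESA3 with 12. The part of seed RNA in these results was not tested. CESA3 was also lost without Col-0 mock replicate 2 or 3 or Col-0 12 replicate 3, and CESA1 without any of the 3 mock libraries or Col-0 12 replicate 1 or 3.

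In jaz9-1 no member was called with 2e, where 0.244% of all tested genes were lower and 1.73% higher; edgeR gave an unadjusted p below 0.05 for 1 of the 9 (CESA2, with a difference of 0.25), and DESeq2 called none. CESA3 was at 188, 182 and 193 CPM and CESA6 at 137, 122 and 117 CPM, both overlapping the mock libraries. CESA2 and CESA4 had all libraries with 2e above the mock ones, as did 7.61% of all tested genes, and CESA1 all below, as did 6.32%. With 12 in jaz9-1, CESA1 alone was lower, where 0.482% of all tested genes were lower and 2.01% higher. It was at 142, 148 and 142 CPM against 179.6, 170.1 and 179 CPM with mock and fell by 0.29 on the log2 scale (SE 0.081, FDR = 0.0611). The call was lost without jaz9-1 mock replicate 1 or 3 or jaz9-1 12 replicate 1 or 3 (FDR 0.180 to 0.197). Neither compound had an effect in jaz9-1 that was shown to differ from that in Col-0, as the test of the difference above gave no call.

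The compounds were also set against each other within a genotype, at the same time and dose. In Col-0, CESA3 and CESA2 were higher with 2e than with 2, where 8.51% of all tested genes were higher and 9.01% lower. CESA3 differed by 0.33 (SE 0.085, FDR = 0.00566) and CESA2 by 0.30 (SE 0.11, FDR = 0.0768). CESA3 was also higher with 12 than with 2, by 0.27 (SE 0.085, FDR = 0.0262), where 7.59% of all tested genes were higher and 9.31% lower. For CESA1 the differences from 2 were -0.024, 95% interval -0.19 to 0.14, FDR = 0.920 for 2e, and -0.094, 95% interval -0.26 to 0.070, FDR = 0.585 for 12. The CESA2 call was lost when Col-0 2 replicate 1, 2 or 3, or Col-0 2e replicate 1 or 3, was left out (FDR 0.176 to 0.362), and without the 2 libraries with seed transcripts (0.113). The call of CESA3 for 12 was lost without Col-0 2 replicate 1 or Col-0 12 replicate 1 or 2 (FDR 0.118 to 0.159), and without the 2 libraries with seed transcripts (0.130). In the fit without those 2 libraries the differences were 0.29 for CESA2 with 2e and 0.24 for CESA3 with 12.

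In jaz9-1, CESA5, CESA3, CESA6 and CESA2 were higher with 2e than with 2, where 12.2% of all tested genes were higher and 13.3% lower. CESA5 differed by 0.87 (SE 0.13, FDR = 7.87e-06), from 24.6, 23.6 and 19.0 CPM with 2 to 39.3, 40.9 and 43.4 CPM with 2e. CESA3 differed by 0.25 (SE 0.086, FDR = 0.0335), CESA6 by 0.31 (SE 0.11, FDR = 0.050) and CESA2 by 0.32 (SE 0.12, FDR = 0.0565). Without jaz9-1 2 replicate 2, CESA5 alone of these 4 was called (FDR 0.180 for CESA3, 0.344 for CESA6 and 0.206 for CESA2). The CESA6 call was also lost without jaz9-1 2e replicate 1 (0.218), and those of CESA3 and CESA2 without jaz9-1 2e replicate 3 (0.102 and 0.234). With 12, CESA5 was higher than with 2 by 0.70 (SE 0.13, FDR = 0.000219) and CESA6 by 0.27 (SE 0.11, FDR = 0.0966), where 11.4% of all tested genes were higher. CESA1 was lower with 12 than with 2, by a log2 difference of -0.19 (SE 0.081, FDR = 0.0977), where 12.8% of all tested genes were lower, and the estimate turned to 0.018 with library totals in place of TMM. The CESA1 call was lost without jaz9-1 2 replicate 3 or any of the 3 libraries with 12 (FDR 0.118 to 0.274). The CESA6 call for 12 was lost without jaz9-1 2 replicate 2 or 3 or jaz9-1 12 replicate 1 or 2 (FDR 0.123 to 0.477).

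No member differed between 2e and 12. In Col-0, edgeR called 0 of all tested genes (810 at an unadjusted p below 0.05, none of them a member), and DESeq2 called 9. In jaz9-1, 0.0547% of all tested genes were higher and 0.00995% lower with 2e. The 95% intervals of the log2 difference in Col-0 were -0.094 to 0.23 for CESA1, -0.12 to 0.23 for CESA3 and -0.25 to 0.21 for CESA6. For the secondary wall genes they were wider, such as -0.17 to 0.99 for CESA8.

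Ratios within a library do not depend on the scaling. The count of CESA3 relative to that of CESA1, which sit together in the primary wall complex, was 1.22, 1.20 and 1.21 in the Col-0 mock libraries and 0.873, 0.881 and 0.985 with 2. In jaz9-1 it was 1.08, 1.09 and 1.17 with mock and 0.964, 0.900 and 0.998 with 2. All 6 libraries with 2 lay between 0.873 and 0.998, while the other 18 lay between 1.08 and 1.30. The libraries with 2e and 12 lay on the side of the mock ones, with means of 1.16 for 2e and 1.18 for 12 in Col-0 and 1.19 and 1.26 in jaz9-1. This ratio was chosen after its values were seen and is given with no test.

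The count of CESA5 relative to CESA1 was 0.153, 0.147 and 0.109 in jaz9-1 with 2 and 0.240, 0.243 and 0.256 with mock. In Col-0 it was 0.226, 0.194 and 0.209 with 2 and 0.241, 0.279 and 0.245 with mock. The ratio was therefore lower with 2 than with mock in both genotypes with no overlap. With 2e and 12 it was 0.225 to 0.261 and 0.234 to 0.266 in Col-0, and 0.255 to 0.265 and 0.223 to 0.295 in jaz9-1. In Col-0 the libraries with 2 thus overlapped those with 2e. This ratio too was chosen after its values were seen.

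CESA4, CESA7 and CESA8 together made up 3.13% ± 0.513 of the CPM of the 9 genes in Col-0 mock libraries (SD, n = 3) and 2.72% ± 0.408 with 2. In jaz9-1 the share was 3.05% ± 0.12 with mock and 3.92% ± 0.994 with 2, where the libraries were at 4.73, 4.21 and 2.81%. With 2e it was 3.15% ± 0.528 in Col-0 and 3.55% ± 0.399 in jaz9-1, and with 12 it was 2.92% ± 0.66 and 3.74% ± 0.302. In Col-0 each compound overlapped mock. In jaz9-1 the libraries with 2e and 12 all lay above the mock ones and those with 2 overlapped them.

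**Figure D3:**
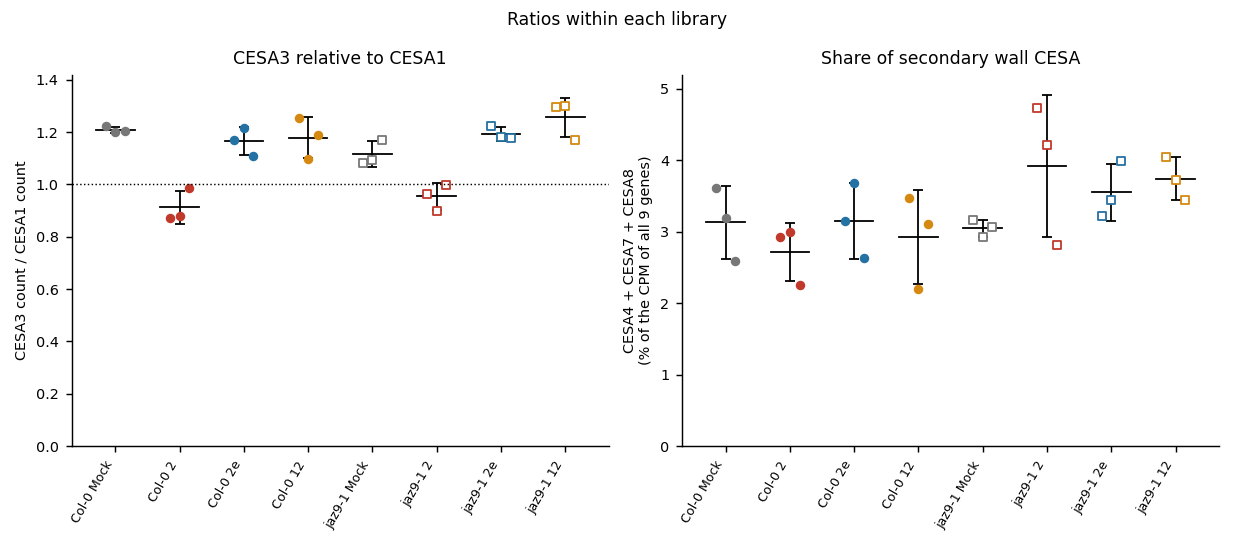
Left, the count of CESA3 divided by that of CESA1 in each library; the dotted line marks equal counts. Right, the share of CESA4, CESA7 and CESA8 in the summed CPM of the 9 genes (percent). Points are libraries (circles Col-0, squares jaz9-1), lines the mean and bars the SD of 3 libraries. The 6 libraries with 2 are the only ones of the 24 with a ratio below 1.

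Genes whose products work with the complex were examined next. Of 7 such genes 6 were tested, and 3 were lower with 2 in Col-0 while none was higher, beside 11.2% and 11.9% of all tested genes. COB, a GPI-anchored protein needed for oriented cellulose deposition, was at 239, 240.2 and 250.4 CPM with mock and 167, 163 and 161 CPM with 2, and fell by 0.57 on the log2 scale (SE 0.092, FDR = 1.10e-05). CTL1, a chitinase-like protein of the primary wall, was at 684, 703 and 695 CPM with mock and 567, 589.8 and 533 CPM with 2, and fell by 0.30 on the log2 scale (SE 0.069, FDR = 0.00136). KOR1, a membrane-bound endoglucanase, was at 212, 210.4 and 194 CPM with mock and 172, 169 and 165 CPM with 2, and fell by 0.29 on the log2 scale (SE 0.076, FDR = 0.00558). The median of the 6 was -0.29, against -0.016 over all tested genes.

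COB, CTL1 and KOR1 were also lower with 2e in Col-0, where 0.343% of all tested genes were lower, and with 12, where 0.855% were. COB fell by 0.42 on the log2 scale (SE 0.092, FDR = 0.00540), CTL1 fell by 0.30 on the log2 scale (SE 0.069, FDR = 0.00872) and KOR1 fell by 0.26 on the log2 scale (SE 0.076, FDR = 0.0712). With 12 in Col-0, COB fell by 0.49 on the log2 scale (SE 0.092, FDR = 0.000971), CTL1 fell by 0.32 on the log2 scale (SE 0.069, FDR = 0.00628) and KOR1 fell by 0.33 on the log2 scale (SE 0.076, FDR = 0.0109). These comparisons share the mock libraries with each other and with that of 2. In jaz9-1 with 2, COB fell by 0.46 on the log2 scale (SE 0.093, FDR = 0.000343) and CTL1 fell by 0.30 on the log2 scale (SE 0.070, FDR = 0.00152), while KOR1 differed by -0.12 (SE 0.076, FDR = 0.286). None of the 6 was called with 2e or 12 in jaz9-1; edgeR gave an unadjusted p below 0.05 for 1 with 2e and 3 with 12.

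Among 19 genes of secondary wall enzymes and xylem markers, all tested, 3 were higher with 2 in Col-0 and none was lower, beside 11.9% and 11.2% of all tested genes, with a median of -0.049. The 3 are known for parts in the making of xylan, a wall hemicellulose, while other xylan genes of the list (IRX9, IRX10, FRA8, IRX14 and GAUT12) were not called, and 11 of the 19 estimates were below 0. PARVUS, a glycosyltransferase, was at 10.3, 11.5 and 8.36 CPM with mock and 24.1, 21.8 and 21.7 CPM with 2, a rise of 1.18 (SE 0.20, FDR = 2.93e-05). IRX15-L was at 5.84, 5.02 and 5.71 CPM with mock and 13.1, 12.4 and 8.30 CPM with 2, a rise of 1.02 (SE 0.31, FDR = 0.0174). IRX15 was low, at 1.92, 0.446 and 0.662 CPM with mock and 4.86, 3.74 and 2.71 CPM with 2, a rise of 1.91 (SE 0.68, FDR = 0.0441).

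In jaz9-1 with 2, 4 of the 19 were higher and 1 was lower, beside 14.9% and 14.2% of all tested genes. PARVUS rose by 1.44 (SE 0.21, FDR = 1.92e-06) and IRX15-L by 0.87 (SE 0.32, FDR = 0.0478). The other 3 were named after their values were seen. GUX1, a xylan glucuronosyltransferase, was at a log2 difference of 2.89 (SE 0.89, FDR = 0.0155). It was low, with 610 reads in total over the 24 libraries and reads in 23 of them. XCP2, a xylem cysteine peptidase, was at 0.45 (SE 0.16, FDR = 0.0405). Both had libraries that overlap between the groups. LAC4, a laccase of lignin formation, fell by 0.72 on the log2 scale (SE 0.32, FDR = 0.0999). With 2e and 12 none of the 19 was called in either genotype; edgeR gave an unadjusted p below 0.05 for 2 and 5 of them in Col-0, and for 2 and 1 in jaz9-1.

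Of 21 regulators of secondary wall formation 14 were tested. With 2 in Col-0, 1 of these was called higher and none lower, beside 11.9% and 11.2% of all tested genes. This was KNAT7, a homeodomain protein that acts on secondary wall genes. It was at 4.79, 4.80 and 7.23 CPM with mock and 11.5, 10.6 and 10.9 CPM with 2, a rise of 0.95 (SE 0.27, FDR = 0.0105), and in jaz9-1 it rose by 0.78 (SE 0.28, FDR = 0.0380). In jaz9-1, 2 of the 14 were higher with 2 and none lower, beside 14.9% and 14.2% of all tested genes. The other was MYB63, an activator of lignin genes named after its values were seen, which rose by 1.30 (SE 0.55, FDR = 0.0905). The median of the 14 with 2 was 0.52 in Col-0 and 0.55 in jaz9-1, against -0.016 and -0.028 over all tested genes. Of the 14 estimates, 5 in Col-0 and 4 in jaz9-1 were below 0, and edgeR gave an unadjusted p below 0.05 for 3 and 2. Of 7 close relatives of the CESA genes (CESA10 and CSLD1 to CSLD6) 3 were tested, and none was called with 2 in Col-0. CSLD5, named after its values were seen, fell by 0.53 on the log2 scale (SE 0.15, FDR = 0.0109) in jaz9-1. There 14.2% of all tested genes were lower.

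Some markers of other cell types were called with 2 as well. Of 4 phloem markers, APL and SEOR1 were higher with 2 in Col-0, by 0.55 (SE 0.15, FDR = 0.00759) and 0.57 (SE 0.22, FDR = 0.0784). In that comparison 11.9% of all tested genes were higher, and 1 of the 4 phloem estimates was below 0. The summed level of the 4 was 108 to 116 CPM over the mock libraries and 128 to 135 CPM with 2. In jaz9-1 the sum was 86.1 to 104 CPM with mock and 128 to 171 CPM with 2. There 2 of the 4 were called higher, where 14.9% of all tested genes were, and 0 of the 4 estimates were below 0. Of 4 root hair markers, COBL9 fell by 1.13 on the log2 scale (SE 0.32, FDR = 0.00895) in Col-0, where 11.2% of all tested genes were lower. The list was split in direction, with 2 of 4 estimates below 0, and none was called in jaz9-1, where the summed level was 40.7 to 47.9 CPM with mock and 52.4 to 66.8 CPM with 2. In Col-0 the sum was 43.2 to 55.1 CPM with mock and 41.0 to 47.5 CPM with 2. Neither of 2 leaf markers was called with 2 in Col-0. In jaz9-1, RBCS1A, a subunit of RuBisCO named after its values were seen, rose by 0.37 (SE 0.070, FDR = 0.000124). There 14.9% of all tested genes were higher. The estimate for LHCB1.1, the other leaf marker, was below 0. The sum of both, most of it RBCS1A, was 19578 to 20654 CPM with mock and 22715 to 28368 CPM with 2. The phloem, root hair and leaf sums in jaz9-1 thus did not overlap between 2 and mock, beside the lower values of CESA3, CESA5 and CESA6 there. In Col-0 the phloem sums did not overlap either. Of all tested genes, taken singly, 15.4% had every library with 2 above every mock library in jaz9-1. The sums follow their most abundant genes. In jaz9-1 the estimates of 2 of the 4 root hair markers and 1 of the 2 leaf markers were below 0. The sum over the 19 secondary wall and xylem genes was 155 to 174 CPM with mock and 169.7 to 183 CPM with 2 in Col-0, and 157 to 176 against 187 to 222 CPM in jaz9-1. This sum too did not overlap between 2 and mock in jaz9-1. The part of cell composition in the CESA values was not tested.

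**Figure D4:**
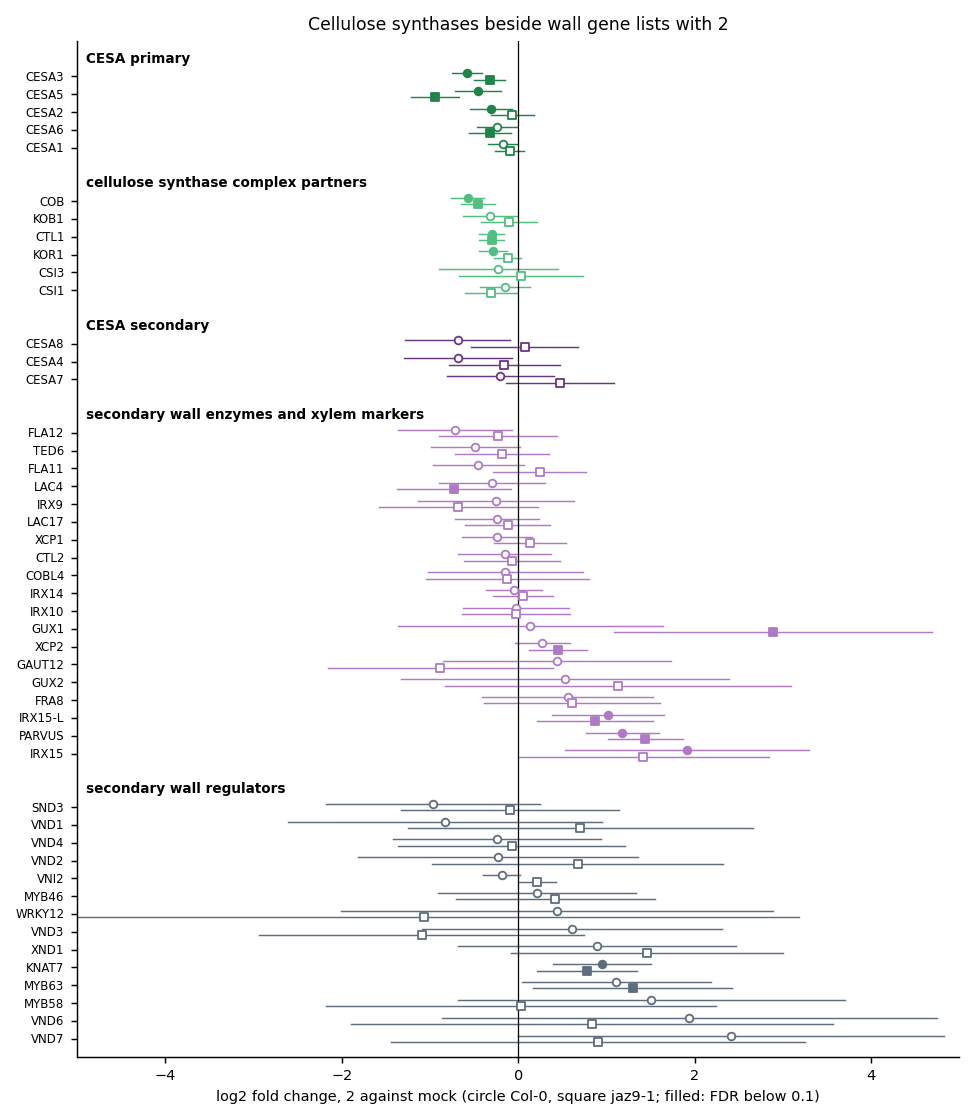
Log2 fold change of 2 against mock (x axis) in Col-0 (circles) and jaz9-1 (squares) for the tested genes of 5 lists (y axis), with bars for the 95% interval, 1 of which runs past the plot edge. Filled points have an FDR below 0.1. Called primary wall CESA genes and partners lie left of 0, while PARVUS, IRX15-L and KNAT7 lie right of 0 in both genotypes.

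The genes with the most similar pattern over the 8 group means were ranked among 16705 candidates by the root mean square (RMS) difference of centred log2 CPM from the mean of each trio. Nearest to the trio CESA1, CESA3 and CESA6 were AT3G23300 (RMS 0.029), AT1G78040 (0.035), CTL1 (listed as POM1, 0.036), sks5 (0.042) and FBW2 (0.046). The trio's own genes were farther from their mean, at ranks 333 for CESA6, 362 for CESA3 and 415 for CESA1. Nearest to CESA4, CESA7 and CESA8 were PRK (0.056), CHLI2 (0.064), AT3G25480 (0.064), AGP16 (0.074) and GOX1 (0.075). Here the members stood at ranks 532 for CESA8, 1203 for CESA4 and 2673 for CESA7. Within groups, the 3 genes of a trio had the same highest library in 3 of 8 groups for the primary trio and in 1 of 8 for the secondary trio, and the same lowest library in 3 of 8 and 4 of 8.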

How the data were processed

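RNA was sequenced from whole seedlings, 24 libraries in 8 groups of 3. By the study's methods, the authors trimmed reads with Trimmomatic 0.39, aligned them to TAIR10 (the build in the labels) with HISAT2 2.2.1 (maximum intron length 5000) and made the deposited counts with featureCounts 2.0.1 (strand setting 1, at least 0.5 of a read overlapping the feature, primary alignments, reads over several genes counted for each). A second deposited table, with 32 values a gene of which 8 carried no name of a sample here, was not used. The 9 genes and the other lists were chosen with earlier results of these data known, and 6 listed partner genes (CC1, CC2, STL1, STL2, SHOU4 and SHOU4L) were dropped because the reference annotation did not pair those symbols with the listed IDs, which were in the table.

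Counts were fitted in 1 model over the 8 groups with edgeR 4.0.16 (R 4.3.3; filterByExpr with a count minimum of 10, TMM, quasi-likelihood test), with Benjamini-Hochberg adjustment across the 20109 of 27416 genes that passed. The threshold was an FDR of 0.1. The study calls the replicates independent without saying whether these were separate cultures or days, and p-values measure the spread between these libraries. Libraries held 6226126 to 29404141 counts, and no 2 libraries of the same group were alike within sampling noise. The code was tested on simulated data. Levels per kilobase used RefSeq transcript lengths (TAIR10.1), with 26719 IDs matched. Named genes were the 9 members, up to 6 genes of each list called for 2 against mock in Col-0, and the 5 nearest in pattern. Alternatives were an FDR of 0.05, RLE scaling, no count filter, a replicate block, organelle genes left out, only the groups compared, DESeq2 1.42.0 and each library left out in turn. Library totals in place of TMM, leaving out 2 libraries with seed transcripts or the 2 with the fewest counts, and the count ratios were added after the data were seen.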

Additional observations from a re-analysis of the deposited data

How the results depend on the processing

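CESA4, CESA7 and CESA8 stood at low levels and CESA9 near 0, where few reads limit the precision. Single calls near the FDR of 0.1 were often lost when 1 library was left out. Such a fit also has fewer libraries, and a call could be lost whichever library was dropped, as for CESA6 with 2e in Col-0. Of 2881 gene values under alternatives, 98 lost the call, 39 gained one, 1 called value changed sign, and the other 2743 stayed on their side of the FDR threshold, among them uncalled values that changed sign. The cause was not tested for any of these. The number of the 9 genes called moved as follows. For 2 against mock in Col-0, 3 were lower, and 5 in a fit of only the groups compared, 5 with DESeq2 and 7 with library totals in place of TMM, 4 without the libraries with the fewest counts, and 2 at an FDR of 0.05, with no count filter or without the libraries with seed transcripts. In jaz9-1 the 3 became 5 with library totals and 2 with only the groups compared. For 2e against mock in Col-0 the 1 became 0 at an FDR of 0.05, with RLE or without the libraries with seed transcripts, and 2 with DESeq2. For 12 against mock in Col-0 the 2 became 1 at an FDR of 0.05 or with library totals 0 without the libraries with seed transcripts, and 3 with only the groups compared or DESeq2. In jaz9-1 the 1 lower with 12 became 0 at an FDR of 0.05, with no count filter, in a fit of only the groups compared and without the 2 libraries with the fewest counts. For jaz9-1 against Col-0 with 2, the 1 lower became 0 in a fit of only the groups compared or without the libraries with the fewest counts, and 2 with library totals. The 1 higher became 2 with DESeq2 and 0 at an FDR of 0.05, with no count filter, only the groups compared, without the libraries with the fewest counts and with library totals. For 2e against 2 the 2 higher in Col-0 became 1 at an FDR of 0.05, with no count filter or without the libraries with seed transcripts, and 4 with library totals, and the 4 in jaz9-1 became 1 with only the groups compared. For 12 against 2 in Col-0 the 1 higher became 2 with only the groups compared or without the libraries with the fewest counts, 3 with library totals and 0 without those with seed transcripts. In jaz9-1 the 2 higher became 1 at an FDR of 0.05, with RLE, with organelle genes left out or with only the groups compared, and 4 with library totals. The 1 lower became 0 at an FDR of 0.05, with no count filter, only the groups compared, without the libraries with the fewest counts and with library totals, where CESA1 turned to 0.018 on the log2 scale.

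Leaving out each library in turn gave 2 to 4 lower for 2 against mock in Col-0 and 2 to 3 in jaz9-1, 0 for 2e in Col-0, and 0 to 3 for 12 in Col-0 and 0 to 1 in jaz9-1. For jaz9-1 against Col-0 it gave 0 to 2 lower and 0 to 1 higher with 2, and 0 to 1 higher with 2e. For 2e against 2 it gave 1 to 2 higher in Col-0 and 1 to 5 in jaz9-1, and for 12 against 2 it gave 0 to 1 in Col-0 and, in jaz9-1, 1 to 4 higher and 0 to 1 lower. No difference between the genotypes in a response was called in any of these fits.

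The replicate numbers did not pair the libraries: same-numbered libraries correlated at -0.051 to 0.065 in 84 pairs, and 6 of 24 correlated best with their own number. With the number as a replicate block, the 1 higher for jaz9-1 against Col-0 with 2 and the 1 lower for 12 against 2 in jaz9-1 became 0, the 2 higher in the latter became 1, and the 3 lower for 2 against mock in Col-0 became 4 with CESA8 (FDR = 0.0897).

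With library totals the calls over all genes for 2 against mock were 4753 lower and 1733 higher in Col-0 (2258 and 2392 with TMM), and 5614 and 1963 in jaz9-1 (2859 and 3006 with TMM). Per kilobase the share of CESA4, CESA7 and CESA8 was 3.65% with mock, 3.20% with 2, 3.70% with 2e and 3.43% with 12 in Col-0, and 3.56% with mock, 4.60% with 2, 4.14% with 2e and 4.36% with 12 in jaz9-1.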
